A study of Homo sapiens with 9 samples.

Results

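The 46 genes described here encode proteins of the lysosome and of autophagy, and they were chosen as the rows of the count table whose symbol stood in a list of such genes, 46 of 59050 symbols. The list was drawn up with earlier results of these data known. The expression level of these genes was measured by RNA sequencing in MEC1, an established B-cell line derived from chronic lymphocytic leukemia (CLL), in 3 samples kept in conventional 2D culture, 3 samples bioprinted in a 3D hydrogel scaffold and harvested at day 7 (3D_7d), and 3 bioprinted samples harvested at day 14 (3D_14d). All samples came from this single line and the bioprinted cells were printed in CELLINK Bioink hydrogel cross-linked with CaCl2, without any drug, so that the groups differ in culture format and time. How long the 2D cells were cultured is not given, and 2D is therefore a control format and not a starting point in time. The sample names carry the term MECPGK, which the labels do not explain. The labels do not state whether the 3 samples of a group were separate cultures, and the p-values therefore measure the spread between these samples, which may be technical. TRIzol and DNase I preceded the column step for RNA of the scaffolds, while 2D cultures went straight to the column kit, so that extraction and culture format cannot be told apart in the comparisons with 2D. Extraction was the same at both time points. In bulk RNA, fewer cells of a kind and less RNA per cell cannot be told apart.

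Lysosomes are acidic organelles in which hydrolases break down proteins, glycans, nucleic acids and lipids, and the vacuolar H+-ATPase (V-ATPase) pumps in the protons that these enzymes need. Macroautophagy encloses cytoplasm in a double membrane, the autophagosome, which is built by the ATG proteins, decorated with lipid-bound ATG8 proteins such as LC3B, and finally fused with a lysosome. Many genes of both systems are induced by the transcription factors TFEB and TFE3, which enter the nucleus when mTORC1 activity is low and which bind a palindromic promoter element known as CLEAR (coordinated lysosomal expression and regulation). B cells also use lysosomal proteases to cut antigens and the invariant chain before peptides are loaded on MHC class II molecules.

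The promoters that hold the core of the CLEAR element, which TFEB and TFE3 are known to bind, are shown first. The core, TCACGTGA, reads the same on both strands and contains the E-box CACGTG. It was searched on both strands in a window of 250 bases before to 50 bases after the RefSeq start of each gene (GRCh38.p14), which was at hand for 37 of the 46 members. It was found in 5 of the 37 (13.5%), against 222 of 9441 tested genes with such a window (2.35%). Of all 27305 genes with a window at hand, 321 held it (1.18%). The stretches of these 5 genes run 5′ to 3′ on the strand of the gene, from 36 bases before the first core to 36 bases after the last or, where nearer, to the base before the RefSeq start. The core is in capitals, and the second LAMP1 stretch spans the start:
LAMP1, chr13:113297174-113297238, plus strand: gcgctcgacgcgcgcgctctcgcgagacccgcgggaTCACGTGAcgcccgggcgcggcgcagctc
LAMP1, chr13:113297226-113297255, plus strand: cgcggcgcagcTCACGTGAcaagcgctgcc
MCOLN1, chr19:7522546-7522623, plus strand: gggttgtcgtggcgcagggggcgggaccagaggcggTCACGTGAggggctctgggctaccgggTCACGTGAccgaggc
CTSA, chr20:45891273-45891334, plus strand: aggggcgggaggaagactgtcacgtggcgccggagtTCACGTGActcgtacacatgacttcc
ATP6V0D1, chr16:67481174-67481253, minus strand: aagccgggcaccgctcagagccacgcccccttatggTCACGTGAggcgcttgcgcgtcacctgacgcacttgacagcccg
GAA, chr17:80101468-80101580, plus strand: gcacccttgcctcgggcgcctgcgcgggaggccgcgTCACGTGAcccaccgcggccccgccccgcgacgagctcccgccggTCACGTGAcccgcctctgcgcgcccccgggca
The core began 29 and 2 bases before the start of LAMP1, 42 and 15 before MCOLN1, 26 before CTSA, 60 before ATP6V0D1, and 77 and 32 before GAA. The shorter E-box CACGTG, which every core contains, was in 8 of the 37 member windows (21.6%) and in 13.0% of the windows of tested genes, and the additional members were CD63, CTSD and NEU1. The element takes its name from lysosomal genes, the class from which most members were chosen. The shares beside those of other genes are therefore a description and not a test. These matches are descriptions of letters and binding was not measured.

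Values per sample are given as CPM, the counts scaled to a common library total with TMM factors (trimmed mean of M-values), in the order of the replicate numbers. Levels of different genes are compared as TPM, which also divide by the length of a gene's exons. Differences between groups are log2 fold changes with standard errors from edgeR's quasi-likelihood test, and a gene was called when its p, adjusted by Benjamini-Hochberg over all 13463 tested genes, was at most 0.05. Both comparisons with 2D share the same 3 control samples. Depth ranged from 54662799 to 85968686 assigned reads. Day 14 was the most variable group: replicate 1 had a median correlation of 0.954 with the other samples of its group, against 0.963 to 0.991 for the other 8 samples. The lineage of the line was visible in 7 of 8 B-cell markers, with MS4A1 (CD20) at 785 to 1666 CPM in all samples, whereas CD5, which CLL cells usually carry, was at 0.667 CPM or less. Markers of monocytes and macrophages, cells rich in lysosomes, summed to 1.32 to 1.93 TPM in 2D, 1.24 to 2.64 at day 7 and 2.31 to 2.68 at day 14 over 10 genes, 1 of which, ITGAM, passed the filter on low counts, and LYZ was at 0 in 8 of the 9 samples. Of 8 T and NK cell markers, CD3D and CD3G were at 0.0538 CPM or less, whereas TRAC, the constant part of the T-cell receptor alpha chain, was at 310 to 355 CPM in 2D, 458 to 487 at day 7 and 526 to 715 at day 14. KLRD1, at 6.02 CPM or less, was called higher than in 2D at day 7 (4.12-fold) and day 14 (8.40-fold). NKG7, at 1.81 CPM or less, was called lower at day 7 (3.88-fold). ITGAM, at 4.76 CPM or less, was called higher at day 14 than at day 7 (5.42-fold). Of 6 fibroblast markers, COL1A1 and PDGFRB were tested. Both were lower at day 7 (2.31-fold and 7.98-fold), at 7.36 and 4.57 CPM or less. The makeup of the libraries also moved with the groups: the 20 most abundant genes took 13.0% to 13.5% of the counts in 2D, 16.0% to 16.2% at day 7 and 17.9% to 20.95% at day 14, and mitochondrial genes 2.30% to 2.83%, 1.44% to 1.64% and 1.62% to 2.82%. The part of these differences in the results was not tested.

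Most of the lysosome and autophagy genes that changed were higher in the scaffolds than in 2D. Of the 46 members, 44 passed the filter on low counts. Since the members were chosen with earlier results of these data known, their shares beside those of all genes are descriptions and not a test. At day 7, 22 of the 44 were higher than in 2D (50%, against 22.2% of all tested genes) and 5 were lower (11.4%, against 21.2%). A log2 fold change of at least 1 was reached by 14 of the higher members, against 8.27% of all tested genes. At day 14, 28 of the 44 were higher (63.6%, against 19.0%) and 1 was lower (2.27%, against 17.2%), and 12 of the higher members reached a log2 fold change of at least 1 (7.29% of all tested genes). With 2 control libraries fewer calls were made at day 14: 24, 19 and 18 members were higher without 2D replicate 1, 2 and 3, respectively, beside 13.3%, 12.1% and 11.9% of all tested genes in the same fits. The median log2 fold change of the tested members was 0.39 at day 7 and 0.62 at day 14, where the median of all tested genes was -0.0039 and 0.023. The 3 samples of 2D did not overlap with those of day 7 for 36 of the 44 tested members (64.6% of all tested genes), nor with those of day 14 for 34 (49.7%).

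**Figure D1:**
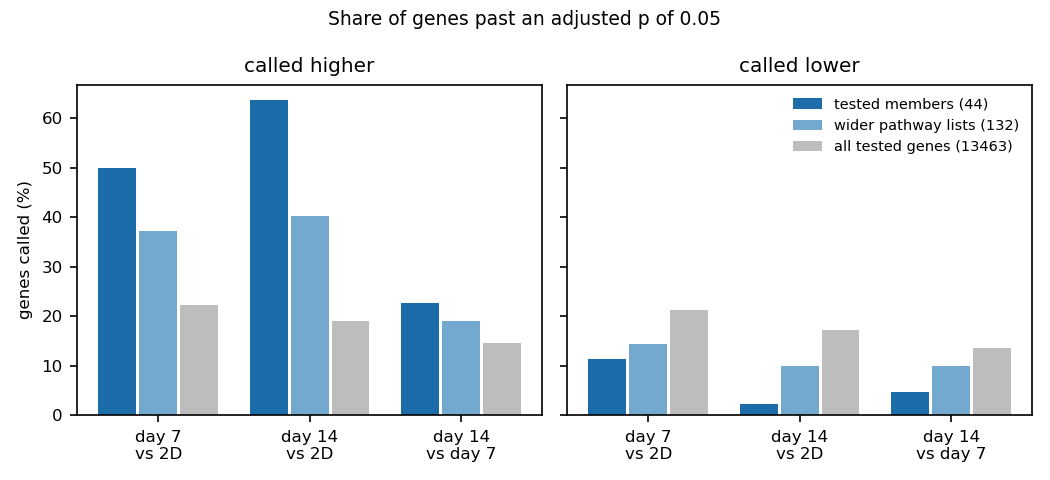
Bars show the percentage of genes called higher (left) or lower (right) in each comparison, for the 44 tested members, 132 tested genes of 7 wider lists of the same pathways and all 13463 tested genes. The members reach 50% and 63.6% higher against 2D, above the 22.2% and 19.0% of all genes, and lie below them among the lower genes. Members and wider lists were chosen with earlier results of these data known.

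Measured per length, the members made up a moderately larger part of the transcriptome in the scaffolds. Their summed level was 6623 to 6767 TPM in 2D, 7689 to 7813 TPM at day 7 and 7486 to 9734 TPM at day 14. Each of the bioprinted samples lay above each 2D sample, and the day 14 samples were the most spread. The 138 further genes of the same pathways, read below, rose less. Their summed level was 10585 to 10653 TPM in 2D, 10726 to 11020 TPM at day 7 and 11111 to 12337 TPM at day 14. PSAP, which encodes prosaposin, the precursor of the saposins that present sphingolipids to hydrolases, had the highest TPM of the members in every group, with 1703 ± 40.4 TPM (SD, n = 3) in 2D, or 25.5% of the members' TPM. It was followed in 2D by LGMN at 694 ± 23.8, CTSH at 492 ± 3.52 and GRN at 453 ± 18.8 TPM. At day 7 the order changed below PSAP: GRN (961 ± 76.9 TPM) and CTSH (896 ± 79.5 TPM) came next and did not differ beyond their spread, ahead of ATP6V0D1 at 427 ± 35.6 TPM. At day 14 CTSH (981 ± 119.9 TPM) and GRN (818 ± 169 TPM) again followed PSAP. The 4 V-ATPase members together went from 358 to 376 TPM in 2D to 786 to 856 TPM at day 7 and 647 to 776 TPM at day 14. The 14 other V-ATPase genes of the wider lists held more TPM and rose less. They summed to 2309 to 2328 TPM in 2D, 2497 to 2681 at day 7 and 2778 to 3045 at day 14. The ATG8 proteins and SQSTM1 together went from 833 to 875 TPM in 2D to 668 to 671 TPM at day 7 and 848 to 934 TPM at day 14.

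**Figure D2:**
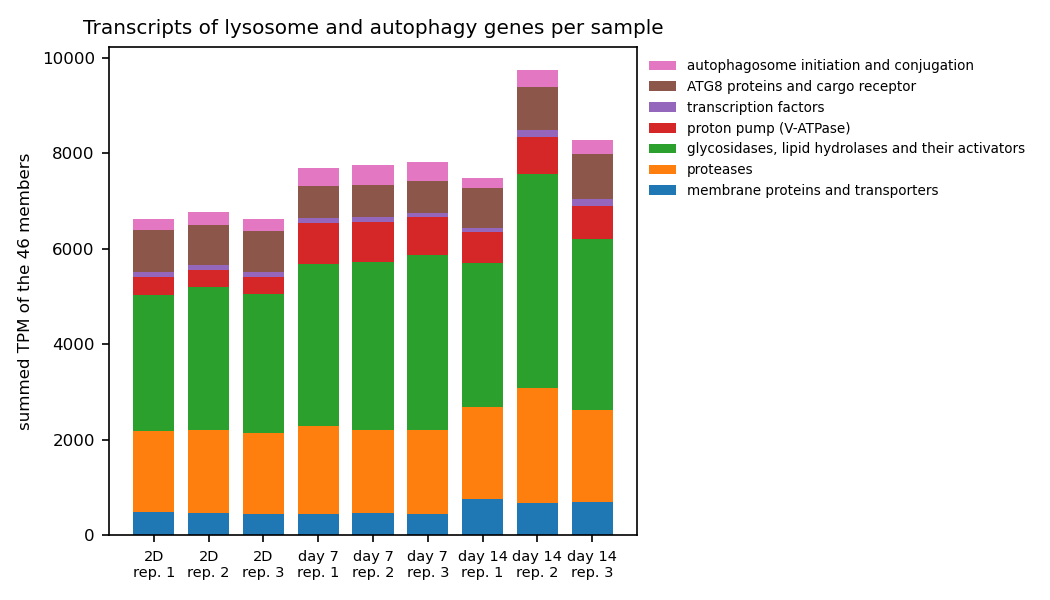
Stacked bars give the summed TPM of the 46 members in each of the 9 samples, coloured by role. The total lies at 6623 to 6767 in 2D and at 7486 or more in each bioprinted sample, with hydrolases and their activators as the largest block.

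All 4 members that encode parts of the proton pump were higher than in 2D both at day 7 and at day 14. Of all tested genes, 22.2% and 19.0% were higher at these times. ATP6V0D1 (GRCh38 chr16:67438019-67481157, minus strand), which encodes subunit d of the membrane-bound V0 sector, was at 118, 107 and 96.7 CPM in 2D, 365, 355 and 328 at day 7 and 366, 309 and 277 at day 14. All bioprinted samples lay far above the highest 2D sample, and the time points overlapped. The difference from 2D on the log2 scale was 1.70 ± 0.15 for day 7, with an adjusted p of 8.06e-06, and 1.56 ± 0.15 for day 14, with 1.78e-05. ATP6V1H, subunit H of the cytosolic V1 sector, was at 54.6, 52.9 and 52.3 CPM in 2D, 117, 145 and 138 at day 7 and 131, 136 and 110.5 at day 14, again with no bioprinted sample in the range of 2D, for log2 fold changes of 1.32 and 1.24. ATP6AP1, an accessory subunit needed for assembly of the pump, was at 199.7, 196 and 175 CPM in 2D, 364, 403 and 385 at day 7 and 434, 492 and 371 at day 14. It was 2.02-fold higher at day 7 and 2.27-fold higher at day 14. The catalytic subunit A, ATP6V1A, changed least of the 4, 1.55-fold at day 7 with an adjusted p of 0.00333 and 1.34-fold at day 14 with 0.032. The day 14 call of ATP6V1A ended without 2D replicate 1, 2 or 3, 3D_7d replicate 2 or 3 or 3D_14d replicate 3, with adjusted p of 0.0574 to 0.133.

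Among the proteins of the lysosomal membrane, LAMP1 and SCARB2 were higher at both times, whereas LAMP2 was not called. LAMP1 (GRCh38 chr13:113297239-113323672, plus strand), a heavily glycosylated protein that lines the lysosomal membrane and whose promoter holds the CLEAR core in both stretches shown above, was at 18.1, 20.2 and 13.7 CPM in 2D, 36.7, 36.4 and 36.7 at day 7 and 51.0, 40.5 and 55.9 at day 14. The 3 groups did not overlap. LAMP1 was above 2D by 1.07 ± 0.18 log2 units at day 7 (adjusted p = 0.000512) and by 1.50 ± 0.18 at day 14, with an adjusted p of 8.42e-05. SCARB2, also known as LIMP-2, carries glucocerebrosidase to lysosomes and was at 16.2, 19.1 and 17.7 CPM in 2D, 37.9, 35.7 and 41.7 at day 7 and 46.6, 53.8 and 44.7 at day 14. It was 2.18-fold higher at day 7 and 2.74-fold at day 14. LAMP2, the partner of LAMP1 on the same membrane, was at 143, 152 and 135 CPM in 2D, 119, 129 and 128 at day 7 and 93.3, 148 and 137 at day 14, and the samples of day 14 overlapped with those of 2D. Per length, LAMP2 was the more abundant of the pair in each group, with 62.9 ± 3.24 against 15.5 ± 2.58 TPM in 2D and 43.6 ± 14.5 against 34.1 ± 7.70 TPM at day 14, where the spreads overlapped.

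MCOLN1 encodes TRPML1, the calcium channel of lysosomes, and its promoter holds the core at 2 places. It was at 12.3, 11.7 and 10.0 CPM in 2D, 21.5, 23.2 and 24.2 at day 7 and 22.0, 20.7 and 13.6 at day 14. Every day 7 sample was above every 2D sample, and the day 14 samples were spread from just above the 2D range up to day 7 levels. MCOLN1 exceeded 2D by 1.02 ± 0.20 log2 units at day 7 and by 0.72 ± 0.20 at day 14, and the latter lost its call without 2D replicate 2 or 3 (adjusted p = 0.0511 to 0.0786). CD63, a tetraspanin of late endosomes and exosomes, was at 359, 311 and 288 CPM in 2D, 292, 332 and 326 at day 7 and 957, 605 and 585 at day 14. Its 2D and day 7 samples overlapped and all day 14 samples lay above them, with replicate 1 the highest. Day 14 was above 2D by 1.17 ± 0.19 log2 units (adjusted p = 0.000576) and above day 7 by 1.18 ± 0.19 (adjusted p = 0.00112). NPC1, which exports cholesterol from lysosomes, was at 56.6, 61.1 and 73.9 CPM in 2D, 85.3, 67.1 and 63.6 at day 7 and 57.6, 112 and 77.4 at day 14, and its groups overlapped. It was called higher at day 14 without 3D_14d replicate 1 (adjusted p = 0.0237).

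**Figure D3:**
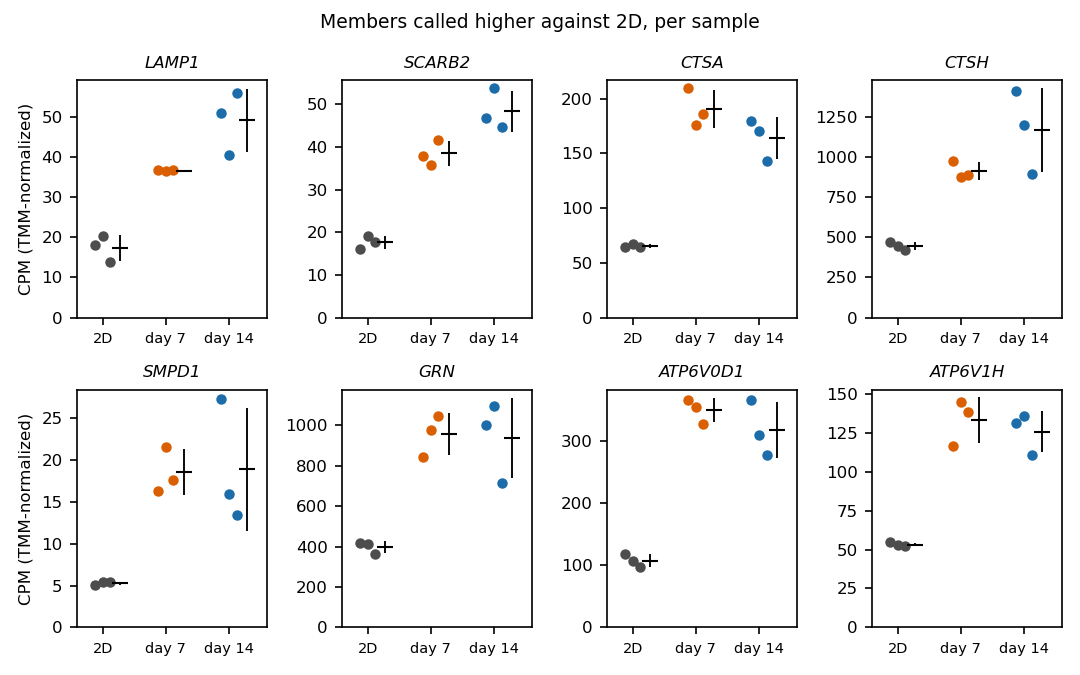
Points give TMM-normalized CPM of 8 members in each of the 9 samples, with the mean and SD of each group of 3 beside them. In each panel the 2D samples lie below all bioprinted samples, for example at 5.02 to 5.38 CPM for SMPD1 against 13.5 CPM or more.

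The lysosomal proteases fell into a majority that was higher in the scaffolds and a single gene, LGMN, that was lower at day 7. Of the 9 tested proteases, 5 were higher and 1 lower at day 7 (55.6% and 11.1%, against 22.2% and 21.2% of all tested genes). At day 14, 6 were higher (66.7%, against 19.0%). CTSA (GRCh38 chr20:45891044-45898820, plus strand), the carboxypeptidase that stabilizes sialidase and beta-galactosidase and whose promoter holds the core, was at 64.4, 67.2 and 64.4 CPM in 2D, 209.8, 176 and 186 at day 7 and 179.9, 170.5 and 143 at day 14. Of the proteases higher at day 7 it had the largest difference, and it departed from 2D by 1.54 ± 0.14 log2 units at day 7 (adjusted p = 9.37e-06) and 1.33 ± 0.14 at day 14, where the adjusted p was 3.23e-05, with no 2D sample near the bioprinted ones. CTSH, an aminopeptidase of the papain family, had the highest TPM of the protease members in the scaffolds. The TPM of CTSD, CTSA and TPP1 come from part of their exonic bases only. CTSH was at 468, 446 and 421 CPM in 2D, 973, 877 and 885 at day 7 and 1410.5, 1198 and 891 at day 14. It was 2.05-fold and 2.62-fold higher. CTSD, the main aspartic protease of lysosomes, was at 25.8, 22.2 and 20.1 CPM in 2D, 47.2, 46 and 41.1 at day 7 and 66.8, 50 and 64.3 at day 14, and its groups did not overlap. It was 1.97-fold higher than in 2D at day 7 and 2.66-fold at day 14. CTSZ, a carboxypeptidase, was at 16.0, 19.1 and 12 CPM in 2D, 30.9, 39.1 and 35.2 at day 7 and 37.0, 33.4 and 32.4 at day 14, so that both bioprinted groups lay above 2D and overlapped. Its level was 2.24-fold that of 2D at day 7 and 2.19-fold at day 14.

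The remaining proteases changed less. CTSC, which activates the serine proteases of granules, was 1.49-fold higher at day 7 and 1.58-fold at day 14, against 407 ± 27.4 CPM in 2D (SD, n = 3). CTSS, the protease that removes the invariant chain from MHC class II in antigen-presenting cells, was at 198, 179.7 and 173 CPM in 2D, 199, 239.7 and 235 at day 7 and 287, 310.0 and 276 at day 14 and was called at day 14, 1.58-fold higher than 2D (adjusted p = 0.00239). CTSB, an abundant cysteine protease, was at 189, 186 and 173 CPM in 2D, 122, 163 and 159 at day 7 and 228, 253 and 198 at day 14. It was called in neither comparison with 2D, and day 14 was 1.53-fold above day 7 (adjusted p = 0.0107). TPP1, a tripeptidyl peptidase, was not called in any comparison and stayed between 68.5 and 127 CPM, with its lowest and highest values both at day 14. CTSL, which most cell types express, was at 0.407 CPM or less in every sample and was not tested.

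LGMN (GRCh38 chr14:92703807-92748679), the asparaginyl endopeptidase that also matures other cathepsins, was the only protease called lower at day 7. It was at 628, 643 and 579.8 CPM in 2D, 143, 211 and 251 at day 7 and 436, 632 and 409.9 at day 14. All day 7 samples lay far below the others and the day 14 samples reached into the 2D range. LGMN was 3.06-fold lower than in 2D at day 7, with a log2 fold change of -1.61 ± 0.22 (adjusted p = 0.000113), and from day 7 to day 14 it rose by 1.29 ± 0.21 log2 units (adjusted p = 0.00131).

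The glycosidases, lipid hydrolases and their activators had calls in both directions. Of 12, 5 were higher and 3 lower at day 7 (41.7% and 25%, against 22.2% and 21.2% of all tested genes). At day 14, 6 were higher and 1 lower (50% and 8.33%, against 19.0% and 17.2%). SMPD1, acid sphingomyelinase, which turns sphingomyelin into ceramide, was at 5.02, 5.38 and 5.38 CPM in 2D, 16.3, 21.6 and 17.7 at day 7 and 27.3, 16.0 and 13.5 at day 14. It had the largest fold change of all members, 3.52-fold at day 7 with an adjusted p of 0.000148 and 3.60-fold at day 14 with 0.00019, although its level in 2D was low. ASAH1, acid ceramidase, which acts on the product of SMPD1, was at 290.5, 283 and 276 CPM in 2D, 143, 156 and 147 at day 7 and 268, 267 and 342 at day 14. It was 1.91-fold lower at day 7 (adjusted p = 0.00024) with all day 7 samples below the rest, and the day 14 samples overlapped with 2D. GRN, progranulin, a growth factor precursor that is cut into granulins in lysosomes, was at 418, 415 and 363 CPM in 2D, 841, 979 and 1045 at day 7 and 1002, 1097 and 714 at day 14. Both bioprinted groups were above 2D, 2.40-fold and 2.35-fold, and overlapped with each other.

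PSAP was at 2025, 2038 and 1908 CPM in 2D, 2397, 2429 and 2654 at day 7 and 3007, 3988 and 2992 at day 14, lowest in 2D and highest at day 14 and without overlap between groups. It was called at day 14, 1.67-fold higher than 2D (adjusted p = 0.00191), and not at day 7, where it was called higher without 3D_14d replicate 1 or 2 (adjusted p = 0.0468 and 0.0293). The step from day 7 to day 14, 1.34-fold (adjusted p = 0.0472), lost its call without any 1 of 7 libraries, namely each 2D and each day 7 replicate and 3D_14d replicate 2, with adjusted p of 0.0626 to 0.135. PPT1, which removes palmitate from proteins, was at 149, 163 and 143 CPM in 2D, 258, 349.7 and 352 at day 7 and 167, 264 and 206 at day 14. It was 2.11-fold higher at day 7 (adjusted p = 0.000572), and all day 14 samples lay between 2D and the upper end of day 7. PPT1 was called higher at day 14 without 3D_14d replicate 1 or 3D_7d replicate 1 (adjusted p = 0.00631 and 0.0459). Its lower level at day 14 than at day 7 lost its call without 3D_14d replicate 1 or 3 or 3D_7d replicate 2 or 3 (adjusted p = 0.0613 to 0.113).

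NPC2 (GRCh38 chr14:74476192-74493512), the soluble protein that hands cholesterol to NPC1, was the only tested member called lower at day 7 and higher at day 14. It was at 81.2, 70.0 and 65.3 CPM in 2D, 41.7, 41.4 and 42.3 at day 7 and 140.1, 86.5 and 118 at day 14. The groups did not overlap, and the 3 day 7 samples differed from each other by less than 1 CPM. On the log2 scale it differed from 2D by -0.79 ± 0.17 in the day 7 samples, with an adjusted p of 0.00297, and by 0.67 ± 0.17 in those of day 14, with 0.00934. The step between the time points was 1.46 ± 0.18 (adjusted p = 0.00021). Its higher level at day 14 lost its call without 2D replicate 2 or 3 (adjusted p = 0.0567 to 0.0684).

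The other hydrolases had smaller differences. LIPA, the acid lipase that frees cholesterol from its esters, was 1.67-fold higher at day 7, and 1.39-fold higher at day 14 with a call that ended without any 1 of 7 libraries, the 3 of 2D, 3D_7d replicates 2 and 3 and 3D_14d replicates 2 and 3 (adjusted p = 0.0588 to 0.15). NEU1, the lysosomal sialidase, was 1.37-fold higher at day 7 and 1.56-fold higher at day 14. The day 7 call of NEU1 ended without any 2D replicate or 3D_7d replicate 2 or 3 (adjusted p = 0.0905 to 0.149). GUSB, beta-glucuronidase, was at 169, 176 and 173 CPM in 2D, 109, 104 and 103 at day 7 and 102, 118 and 91.7 at day 14. All bioprinted samples were below all 2D samples, 1.64-fold at day 7 and 1.66-fold at day 14 (adjusted p = 0.00101 and 0.00115). HEXA, the alpha subunit of beta-hexosaminidase, GLA, alpha-galactosidase, and GAA, acid alpha-glucosidase, were not called in any comparison, with means of 66.4 to 74.8, 33.3 to 36.4 and 32.2 to 39.8 CPM over the groups. GAA is the only one of the 5 members with the core in the promoter that was not called against 2D, and it was at 35.9, 37.9 and 45.5 CPM in 2D, 30.7, 35.4 and 30.4 at day 7 and 25.4, 47.2 and 33.3 at day 14. With only the 6 samples of that comparison, GAA was called lower at day 7 (adjusted p = 0.0464).

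**Figure D4:**
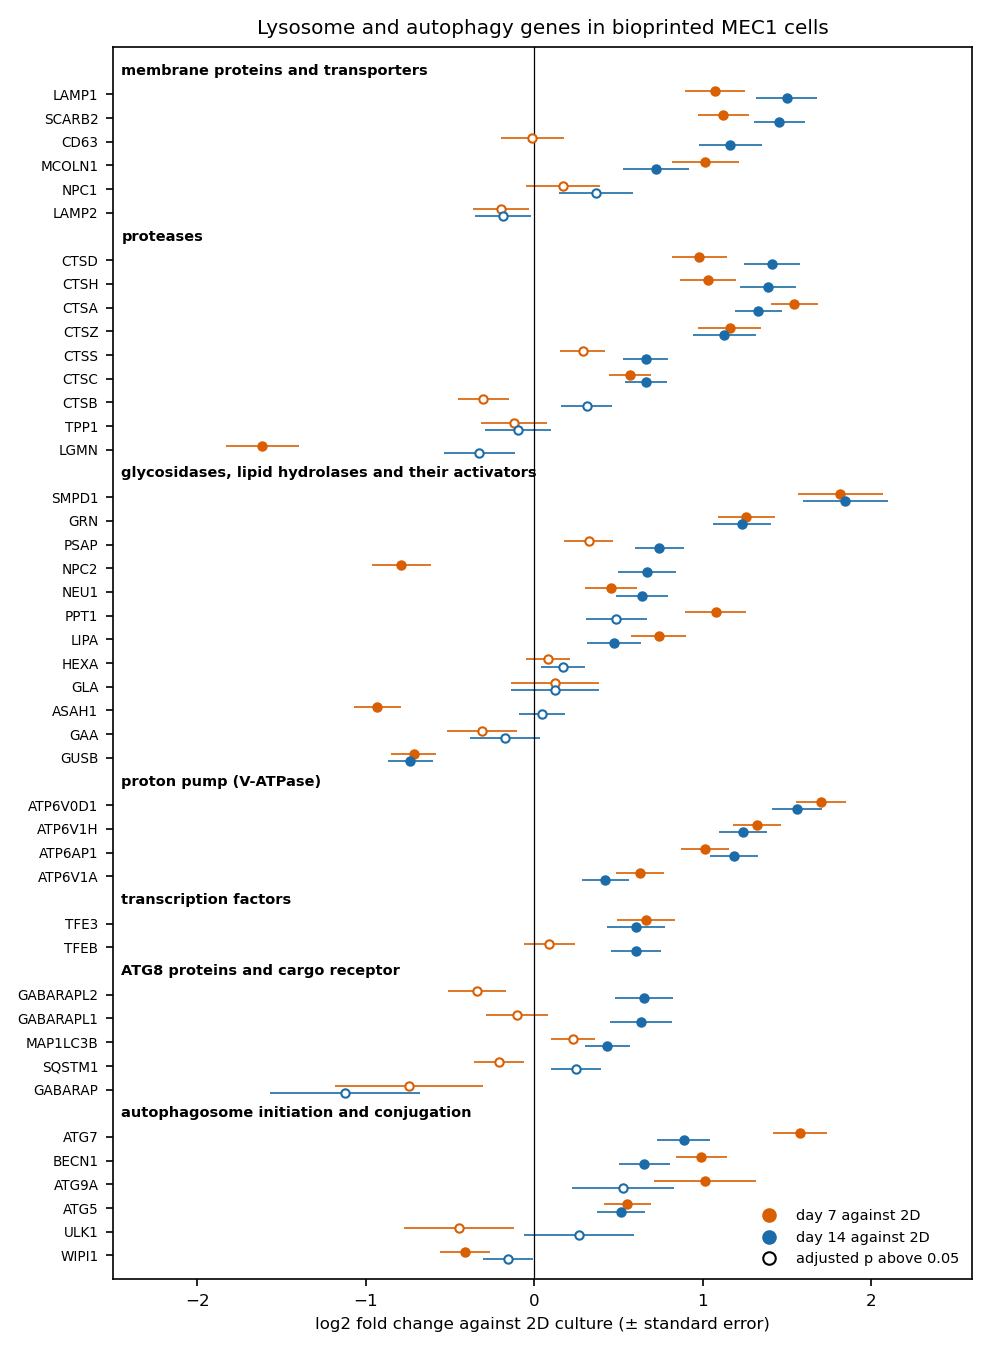
Points give the log2 fold change against 2D of each of the 44 tested members at day 7 (orange) and day 14 (blue), with bars of 1 standard error, grouped by role; filled points passed an adjusted p of 0.05. All V-ATPase points are filled and above 0, and GUSB, NPC2, ASAH1, LGMN and WIPI1 have filled points below 0.

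Of the transcription factors TFEB and TFE3, TFE3 was higher at both times and TFEB at day 14. TFEB (GRCh38 chr6:41683978-41736259) was at 177, 166 and 153 CPM in 2D, 199, 173 and 157 at day 7 and 212, 261 and 283 at day 14. The 2D and day 7 samples overlapped, and all day 14 samples lay above them. It was 1.52-fold higher at day 14 than in 2D (adjusted p = 0.00777) and 1.43-fold higher than at day 7 (adjusted p = 0.0235). The first call ended without 2D replicate 3 (adjusted p = 0.0541) and the second without 3D_14d replicate 3 or 3D_7d replicate 2 or 3 (adjusted p = 0.0544 to 0.0901). TFE3 was at 19.5, 20.9 and 20.2 CPM in 2D, 28.7, 34.4 and 32.9 at day 7 and 23.9, 33.6 and 34.8 at day 14, with all bioprinted samples above 2D, 1.58-fold at day 7 with an adjusted p of 0.00789 and 1.52-fold at day 14 with 0.0154. The day 14 call of TFE3 ended without any 1 of the 2D replicates (adjusted p = 0.0584 to 0.0685). Transcript levels do not report where these proteins were in the cell. Of the 5 members with the CLEAR core in the promoter, 4 were higher at day 7 and 4 at day 14, with median log2 fold changes of 1.08 and 1.33. Among the 30 tested members whose promoter window lacked the core, 16 and 20 were higher and the medians were 0.51 and 0.62. No test was made of this difference between 5 and 30 genes.

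The autophagy members proper divided by role. Of the 4 ATG8 genes and the cargo receptor SQSTM1, none was called at day 7. At day 14, 3 were higher (60%, against 19.0% of all tested genes). GABARAPL2 and SQSTM1 were called lower at day 7 with total counts as the scaling. The same held with only the 6 samples of that comparison. MAP1LC3B, which encodes LC3B, the ATG8 protein most used as a marker of autophagosomes, was at 180.4, 182 and 173 CPM in 2D, 188, 225 and 216 at day 7 and 218, 246 and 259 at day 14. It was 1.35-fold higher at day 14 (adjusted p = 0.0217), a call that ended without any 1 of the 2D replicates (adjusted p = 0.0868 to 0.117). GABARAPL1 was at 19.6, 18.6 and 18.1 CPM in 2D, 21.6, 14.9 and 16.0 at day 7 and 24.4, 30.3 and 32.7 at day 14. The day 7 samples lay on both sides of the narrow 2D range and all day 14 samples above it, 1.55-fold higher than 2D (adjusted p = 0.017) and 1.67-fold higher than day 7 (adjusted p = 0.0112). GABARAPL2 (GATE-16) had the highest TPM of the ATG8 members in 2D, 325 ± 27.2. GABARAP cannot be ranked beside it, since other genes cover 48.2% of its exonic bases and reads on these were not counted. GABARAPL2 was at 206, 169 and 165 CPM in 2D, 137, 147 and 144 at day 7 and 349, 216 and 284 at day 14. Its day 7 samples were the lowest and its day 14 samples the highest, with a log2 difference of 0.99 ± 0.17 between them (adjusted p = 0.00184). Against 2D it was 1.57-fold higher at day 14, and it was called lower at day 7 without 3D_14d replicate 1 (adjusted p = 0.0366). Without 2D replicate 2 or 3 the day 14 calls of GABARAPL1 (adjusted p = 0.0708 to 0.0762) and of GABARAPL2 (adjusted p = 0.0712 to 0.0752) ended.

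SQSTM1, or p62, the receptor that hands ubiquitinated cargo to ATG8 proteins and is itself degraded by autophagy, was at 551, 535 and 519.7 CPM in 2D, 457, 446 and 486 at day 7 and 674, 728 and 507 at day 14. All day 7 samples lay below 2D and the day 14 samples were spread around it, and neither group was called against 2D. Without 3D_14d replicate 3, SQSTM1 was called higher at day 14 (adjusted p = 0.0206). The step from day 7 to day 14 was 1.37-fold (adjusted p = 0.0368), and its call ended without any 1 of 7 libraries, each 2D and each day 7 replicate and 3D_14d replicate 2 (adjusted p = 0.0511 to 0.117). GABARAP was at 0.36 to 1.10 CPM, 412 counts over the 9 samples, and was not called.

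Genes for the start of the autophagosome and for ATG8 conjugation were higher at day 7 in 4 of 6 cases (66.7%, against 22.2% of all tested genes). ATG7 (GRCh38 chr3:11272416-11557665), the E1-like enzyme that activates ATG8 proteins and ATG12, was at 20, 22.1 and 23.9 CPM in 2D, 55.4, 70.3 and 71.4 at day 7 and 39.4, 45.6 and 37.0 at day 14. The 3 groups did not overlap, with day 7 the highest. Compared with 2D it was higher by 1.58 ± 0.16 log2 units at day 7, with an adjusted p of 1.95e-05, and by 0.89 ± 0.16 at day 14, with 0.00107, and day 14 was 1.62-fold below day 7 (adjusted p = 0.00723). BECN1, a subunit of the lipid kinase complex that starts the phagophore, went from 121, 134 and 115 CPM in 2D to 222, 264 and 250.3 at day 7 and 167, 232 and 184 at day 14. It was 1.99-fold and 1.58-fold higher. ATG9A, the lipid scramblase of the vesicles that seed the phagophore, was at 37.6, 54.0 and 47.1 CPM in 2D, 90.6, 87.8 and 101 at day 7 and 33.6, 104 and 61.9 at day 14. The day 7 samples were together above 2D, whereas 3D_14d replicate 1 was the lowest and replicate 2 the highest of all 9 samples. Its 2.02-fold difference at day 7 (adjusted p = 0.0166) lost its call without 2D replicate 1 or 3 or 3D_7d replicate 3 (adjusted p = 0.0512 to 0.074), and at day 14 it was called higher without 3D_14d replicate 1 (adjusted p = 0.00521).

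ATG5, the conjugation partner of ATG12, was 1.47-fold higher at day 7 and 1.43-fold higher at day 14. Both calls ended without 2D replicate 2 or 3, with adjusted p of 0.0509 to 0.0598 at day 7 and 0.0748 to 0.0842 at day 14. WIPI1, which binds the lipid made by the BECN1 complex, was 1.33-fold lower at day 7 (adjusted p = 0.0379), from 36.3 ± 1.32 CPM in 2D to 27.3 ± 2.53 CPM (SD, n = 3). That call ended without any 1 of the 6 compared libraries (adjusted p = 0.0501 to 0.0916). ULK1, the kinase that starts autophagy when mTORC1 is inactive, was at 11.9, 8.22 and 12.5 CPM in 2D, 9.84, 9.56 and 4.47 at day 7 and 18.8, 10.9 and 9.49 at day 14. Its groups overlapped and it was not called in any comparison.

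Between the time points, which shared the extraction protocol, 10 of the 44 tested members were higher at day 14 (22.7%, against 14.5% of all tested genes) and 2 were lower (4.55%, against 13.6%). The samples of day 7 and day 14 did not overlap for 16 members, where 39.3% of all tested genes did not. NPC2, LGMN, CD63, GABARAPL2 and ASAH1 had the largest log2 differences, 1.46, 1.29, 1.18, 0.99 and 0.98. None of these 5 lost its call in a fit that left out 1 library. ATG7 and PPT1 were lower at day 14 than at day 7, and the count of such members was 1 without 3D_7d replicate 2 or 3 or 3D_14d replicate 1 or 3, and 4 without 3D_14d replicate 2. Another 6 members were called in a fit without 1 of the day 14 replicates: LAMP1, CTSD, CTSH and CTSS were then higher at day 14 than at day 7 and BECN1 and ATG9A lower (adjusted p = 0.0132 to 0.0409). No V-ATPase member was called between the time points. Within day 14, replicate 2 had the highest summed level of the members and replicate 1 the lowest, and the part of this spread in the results was not tested beyond leaving each library out.

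**Figure D5:**
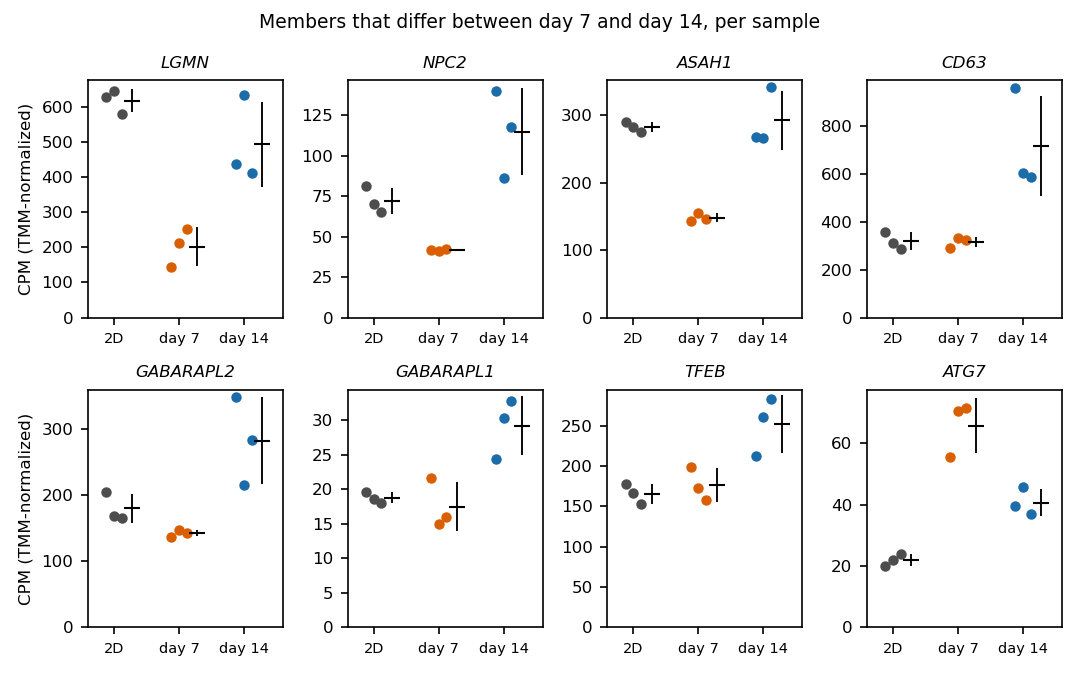
Points give TMM-normalized CPM of 8 members called between day 7 and day 14 in each sample, with the mean and SD of each group of 3 beside them. LGMN, NPC2 and ASAH1 are lowest at day 7, CD63, GABARAPL1 and TFEB are raised at day 14 over 2D and day 7, and ATG7 is highest at day 7.

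The same pathways were also read in 138 further genes on 7 lists, 132 of which were tested. These lists, too, were chosen with earlier results of these data known. At day 7, 49 of them were higher (37.1%) and 19 lower (14.4%), and at day 14, 53 were higher (40.2%) and 13 lower (9.85%). For all tested genes these shares were 22.2% and 21.2% at day 7 and 19.0% and 17.2% at day 14. The machinery that tethers and fuses late endosomes with lysosomes was higher at day 7 in 9 of 10 genes and at day 14 in 5 of 10. VPS18, a core subunit of the HOPS and CORVET tethers, was at 57.8, 63.7 and 63.5 CPM in 2D, 171, 128 and 144 at day 7 and 137, 174 and 113 at day 14. It was 2.40-fold and 2.29-fold higher. VPS33A, which guides SNARE assembly within HOPS, had a log2 fold change of 1.42 at day 7 and 0.88 at day 14.

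Among 13 other tested V-ATPase subunits, 7 were higher and 1 lower at day 7 (53.8% and 7.69%, against 22.2% and 21.2% of all tested genes). At day 14, 9 were higher (69.2%, against 19.0%). ATP6V0A1, an isoform of the proton channel subunit a, was at 33.3, 37.2 and 37.0 CPM in 2D, 101, 133 and 134 at day 7 and 76.9, 127 and 119.7 at day 14, for log2 fold changes of 1.78 and 1.59. TCIRG1, another isoform of subunit a, was lower at day 7 (log2 fold change -0.55), a call that ended in 4 fits without 1 library. Among 29 other hydrolases and activators, 12 were higher and 6 lower at day 7 (41.4% and 20.7%, the latter near the 21.2% of all tested genes). At day 14, 12 were higher and 3 lower (41.4% and 10.3%, against 19.0% and 17.2%). ARSB, which removes sulfate from glycosaminoglycans, was at 4.26, 5.24 and 3.88 CPM in 2D, 20.6, 25 and 21.9 at day 7 and 8.35, 10.6 and 12.2 at day 14, highest at day 7 with no overlap between groups. Its log2 fold change was 2.33 at day 7 and 1.22 at day 14. ACP2, lysosomal acid phosphatase, was 2.94-fold and 2.27-fold higher, whereas ACP5, tartrate-resistant acid phosphatase, was 5.16-fold lower at day 7, at 24.2, 19.2 and 17.6 CPM in 2D and 3.50, 3.21 and 5.12 at day 7. CTSV, a close relative of CTSL, was 3.48-fold lower at day 14.

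Of 10 other membrane proteins, 3 were higher at day 7 (30%, against 22.2% of all tested genes). At day 14, 4 were higher and 1 lower (40% and 10%, against 19.0% and 17.2%). LAPTM5, a lysosomal membrane protein of blood cells that lowers surface levels of the B-cell receptor, was at 678, 658 and 593 CPM in 2D, 1164, 1234 and 1266 at day 7 and 1554, 1788 and 1599 at day 14. It was 1.90-fold higher at day 7 and 2.56-fold at day 14. TMEM192 was the gene lower at day 14, with a log2 fold change of -0.66. In the mannose 6-phosphate pathway, which sends new hydrolases to lysosomes, 3 of 6 genes were higher at each time. This is 50%, against 22.2% of all tested genes at day 7 and 19.0% at day 14. IGF2R, the large mannose 6-phosphate receptor, was 1.61-fold higher at day 7 and 1.62-fold higher at day 14. SORT1, a sorting receptor that also carries progranulin and prosaposin, had log2 fold changes of 2.31 ± 0.58 and 2.85 ± 0.58 at levels of 2.89 CPM or less.

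The list of TFEB relatives and regulators of mTORC1 had calls in both directions. At day 7, 6 of 23 were higher and 6 lower (26.1% each), near the 22.2% and 21.2% of all tested genes. At day 14, 10 were higher (43.5%, against 19.0%) and 6 lower (26.1%, against 17.2%). TFEC, a relative of TFEB, was 2.24-fold lower at day 7 and 3.49-fold lower at day 14, with 23.8, 26.6 and 24.7 CPM in 2D, 12.1, 9.87 and 11.5 at day 7 and 4.05, 8.04 and 9.43 at day 14. SESN2, a leucine sensor that holds mTORC1 in check, was 2.64-fold lower at day 7 and 1.64-fold lower at day 14. LAMTOR1, the lipid anchor of the Ragulator complex on lysosomes, was 1.94-fold and 2.48-fold higher, and SLC38A9, the arginine sensor beside it, 2.71-fold and 1.76-fold. Of 41 other autophagy genes, 9 were higher and 6 lower at day 7, and 10 higher and 3 lower at day 14. The shares higher, 22.0% and 24.4%, were near the 22.2% and 19.0% of all tested genes. The shares lower were 14.6% and 7.32%, against 21.2% and 17.2%. ATG4A, a protease that trims ATG8 proteins, was 2.41-fold higher at day 7 and 1.75-fold at day 14, and OPTN, a cargo receptor, 1.61-fold and 2.16-fold. ATG16L2, a paralog of the conjugation scaffold ATG16L1, was 3.25-fold lower at day 7 and 2.43-fold lower at day 14.

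Some members could be read in part or not at all. None of the 893 genes whose exons are wholly covered by other genes on the same strand had a count in any sample, nor did any of the 642 wholly covered on the opposite strand, whereas 10.6% of the 43808 genes without a shared exonic base had none. Reads on bases shared by genes were therefore not counted, whichever the strand. CD68 (GRCh38 chr17:7579491-7582111), a lysosomal protein of macrophages, is wholly covered by AC016876.2 and AC016876.1, and its 0 counts say nothing about its RNA. Other genes share 55.9% of the exonic bases of CTSD, 48.2% of GABARAP, 43.5% of ATG9A, 41.3% of SQSTM1, 32.2% of ATG7, 29.6% of CTSA, 28.3% of WIPI1, 27.3% of PPT1, 23.7% of HEXA, 23.5% of BECN1, 17.5% of TPP1 and 10.3% of CD63. The levels of these members come from the remaining bases, and their TPM are too low compared with those of members without shared bases.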

How the data were processed

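RNA was sequenced from 9 samples of MEC1 cells, 3 in each of the groups 2D, 3D_7d and 3D_14d, as single reads from SMART-Seq libraries made from a low RNA input. The authors used Trimmomatic (0.39) for trimming, STAR (2.5.3a) for alignment to GRCh38 and featureCounts (1.6.4) for assigning reads to genes, per the methods and the submitters' processing notes. The deposited values are whole counts per gene symbol without normalization, with the exon coordinates used as gene positions here.

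Of 51726 genes with a count, the 13463 that exceeded a CPM of 1 in 3 or more samples were tested. In R (4.3.3), edgeR (4.0.16, with limma 3.58.1) computed TMM factors, fitted 1 model with the 3 groups and applied the quasi-likelihood test to 3 contrasts, with Benjamini-Hochberg adjustment over all tested genes and a threshold of 0.05. Standard errors are the log2 fold change divided by the square root of its quasi-likelihood F. TPM were computed from the counts and the exon union lengths over all genes. Depth was 54662799 to 85968686 counts per sample, and the spread between replicates, which exceeded counting error, set the precision.

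The members, their roles, the wider lists and the rule for named genes were chosen with earlier results of these data known. Members with values in each sample are those called against 2D with a change of 1 or more on the log2 scale in either direction, the member with the smallest p of each role, and LAMP1, LAMP2, TFEB, TFE3, MCOLN1, SQSTM1, MAP1LC3B, GABARAPL1 and ULK1. From each wider list, the gene with the smallest p in each direction and comparison with 2D is named. Values of other members were added after they were seen. Promoters are RefSeq sequences of GRCh38.p14. The fit was tested on simulated counts.

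Alternatives were other scalings (edgeR RLE, total counts, TMM without immunoglobulin, ribosomal protein and mitochondrial genes), DESeq2 (1.42.0), filterByExpr or no filter, only the 6 samples of a comparison, the replicate number as a block, a loess trend with gene length removed (span 0.4), both together, and each sample left out. Replicate numbers were not treated as pairs: same-numbered samples of different groups deviated together with correlations of -0.10 to 0.19, 2 of 9 above 0.1. Between 2D and day 14 the same-numbered correlations were 0.185, 0.108 and 0.093, and those of different numbers ran from -0.135 to 0.040. Whether equal numbers mark a shared origin was not tested.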

Additional observations from a re-analysis of the deposited data

Results flagged for a closer look

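For 12 members the difference from 2D was not the same at day 7 and day 14, by edgeR's quasi-likelihood test of the day 14 against day 7 contrast with Benjamini-Hochberg adjustment. The log2 difference, day 14 minus day 7, was 1.46 for NPC2, 1.29 for LGMN, 1.18 for CD63, 0.99 for GABARAPL2, 0.98 for ASAH1, 0.74 for GABARAPL1, 0.61 for CTSB, 0.51 for TFEB, 0.46 for SQSTM1 and 0.42 for PSAP, and it was -0.69 for ATG7 and -0.59 for PPT1. Each group held 3 samples, so that single values were not screened as outliers.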

How the results depend on the processing

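The calls of single genes were recomputed in 19 alternatives. Of 189 pairs of a named gene and a comparison, 111 were called, 82 of them in every alternative as well, 25 others were called in at least 1 alternative and 53 in no fit, and no call changed its direction. With total counts as the scaling, the median over all genes was -0.16 (log2) at day 7 and -0.18 at day 14, that of the members 0.23 and 0.42, and 8 and 2 members were called lower. With only the 6 samples of a comparison, 9 members were called lower at day 7, 2 at day 14 and 1 between day 14 and day 7, where 6 of the wider genes were lower. Without a filter on low counts the median of the members at day 7 was 0.32, and 6 members and 16 wider genes were higher at day 14 than at day 7. With the length trend removed, 4 members were lower at day 14 than at day 7. The cause was not tested in any of these. Leaving out 1 library gave a median of 0.32 to 0.44 at day 7, 18 to 31 members higher at day 14, and, between day 14 and day 7, 1 to 4 members lower, 15 to 30 wider genes higher and 5 to 17 lower. Replicate numbers are shared by number only. With the replicate block, 22 members were higher and 5 lower at day 7, 29 and 1 at day 14, and 9 and 2 between the time points. With the block and the length trend removed together, 4 members were lower between the time points. Whether depth limited the calls of single members was not tested, and GABARAP had only 412 counts over all samples.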

Other observations

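Of the wider lists, 6 genes were not tested for low counts, and 2 of these lie mostly or wholly under other genes of the table. IFI30, the lysosomal thiol reductase that B cells use in antigen processing, had no count in any sample, and other genes cover 100% of its exonic bases. ATP6V0C, which encodes the proton-carrying ring of the V-ATPase, had at most 23 counts in a sample with 76.3% of its exonic bases covered. The other 4, LAMP3, MITF, MAP1LC3B2 and WDFY3, share at most 5.05% of their bases and had at most 91 counts in a sample. MITF, a relative of TFEB, was at 0.143 CPM or less.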
